A study of Mus musculus with 8 samples.

Results

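The 6 genes described here, Enah, Ccn3, Tph1, Podxl, Spats2 and Gimap4, were listed as transcripts acquired by leukaemia-initiating cells (LICs) of a mouse model of chronic myeloid leukaemia (CML). They were picked by name, with earlier results of the same arrays in view, from 12393 genes that had at least 1 probe set with a single gene symbol. The 6 genes had 12 probe sets of 20380. Enah, Ccn3, Podxl and Gimap4 were brighter on every LIC array than on every array of normal cells, Tph1 only in wild-type LICs, and Spats2 only in LICs without Ezh2. Of the 4, Enah and Ccn3 were below background on every LSK array. Podxl was already well above it there by its brightest probe set, so that acquired, taken as absent before, did not describe it. Gimap4 lay closer to background in LSK cells. Its brightest probe set was above it on each LSK array, from 4.19 upward, and its second was under it on 1 LSK array.

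Expression was measured on Affymetrix 3′ arrays in cells sorted from mouse bone marrow. The normal cells were LSK cells, which lack lineage markers and carry Sca1 and Kit, from 12-week-old C57/BL6 mice (3 arrays, titled WT HSC). The wild-type (WT) LICs were GFP-positive cells with that same LSK phenotype, sorted 14 days after bone marrow transplantation in a retroviral model of CML (3 arrays). The Ezh2 KO LICs came from the same model and day and lacked Ezh2, the methyltransferase of Polycomb repressive complex 2 (2 arrays). The strain and age labels are the same for the 3 groups. Each sample was sorted a second time for purity. The sources used here do not give the oncogene of the virus, the Ezh2 allele, the way it was deleted or any pooling of animals. The repeats are called biological in the labels, and where separate animals are not stated the p-values measure only the spread between these arrays.

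Enah encodes a member of the Ena/VASP family, which binds the growing ends of actin filaments and promotes their elongation in moving cells. Ccn3 encodes a secreted matricellular protein of the CCN family that has been studied as a regulator of blood stem cells in human cord blood. Tph1 encodes the tryptophan hydroxylase that starts serotonin synthesis outside the brain, and mouse mast cells are among the cells known to make serotonin. Podxl encodes podocalyxin, a sialomucin of the CD34 family found on podocytes, vessel walls and embryonic blood progenitors. Spats2 is named for its expression in spermatogenesis, and Gimap4 encodes a GTPase of the GIMAP family, known mainly from lymphocytes.

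The starts of these genes differed in base composition. RefSeq promoter windows (build GRCm38.p6, 250 bases before to 50 after a start) were at hand for 4 of the 6 genes, and those of Ccn3 and Podxl were not used here. The 4 are shown because Polycomb complexes act mostly at promoters rich in CpG, and this set holds both kinds. Capitals mark each CpG.

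Enah, chr1:182019931-182020230, minus strand: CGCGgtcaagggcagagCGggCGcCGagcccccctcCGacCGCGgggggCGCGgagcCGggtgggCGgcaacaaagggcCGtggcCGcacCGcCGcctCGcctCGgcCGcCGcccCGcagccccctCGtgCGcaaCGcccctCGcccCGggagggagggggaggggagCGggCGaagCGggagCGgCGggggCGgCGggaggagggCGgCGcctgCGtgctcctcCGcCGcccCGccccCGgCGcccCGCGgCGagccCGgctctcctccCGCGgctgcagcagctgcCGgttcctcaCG
Spats2, chr15:99126595-99126894, plus strand: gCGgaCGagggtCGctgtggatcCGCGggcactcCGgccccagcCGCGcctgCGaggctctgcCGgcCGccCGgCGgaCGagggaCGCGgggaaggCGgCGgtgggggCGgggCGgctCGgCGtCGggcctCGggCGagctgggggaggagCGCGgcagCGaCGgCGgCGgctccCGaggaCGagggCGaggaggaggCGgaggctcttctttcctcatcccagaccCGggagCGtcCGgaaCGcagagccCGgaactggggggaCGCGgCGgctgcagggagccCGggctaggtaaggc
Tph1, chr7:46672488-46672787, minus strand: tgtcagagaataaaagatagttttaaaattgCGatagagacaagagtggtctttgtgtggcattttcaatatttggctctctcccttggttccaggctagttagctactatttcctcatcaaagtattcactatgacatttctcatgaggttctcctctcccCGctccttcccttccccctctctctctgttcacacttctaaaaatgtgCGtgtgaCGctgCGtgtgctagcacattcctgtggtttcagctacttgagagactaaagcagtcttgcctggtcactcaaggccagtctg
Gimap4, chr6:48684328-48684627, plus strand: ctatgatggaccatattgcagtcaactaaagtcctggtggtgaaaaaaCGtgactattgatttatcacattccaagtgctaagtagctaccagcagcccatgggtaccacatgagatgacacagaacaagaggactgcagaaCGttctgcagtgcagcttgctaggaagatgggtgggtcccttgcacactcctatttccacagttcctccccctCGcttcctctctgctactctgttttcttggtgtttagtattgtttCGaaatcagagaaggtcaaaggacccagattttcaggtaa

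The Enah window held 49 CpG and the Spats2 window 44, more than 99.0% and 97.8% of the 32851 mouse windows, whose median was 7. The Gimap4 window held 4 and that of the upstream Tph1 start 5, while a second Tph1 start held 19. The RUNX motif TGTGGT, searched on both strands, was present in the Gimap4 window and in the upstream Tph1 window, against 16.8% of all windows. The STAT motif TTCNNNGAA (8.30% of all windows), the GATA motif AGATAA (11.2%), the E-box CACGTG (7.15%) and the AP-1 motif TGANTCA (7.81%) were not found in the windows of the 4 genes.

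Values are on the log2 scale of array intensity, with 1 value per gene from the probe set that was brightest over the 8 arrays. The background level was 4.01, the highest mean among 27 control probe sets for unspiked bacterial genes. Array medians lay between 6.42 and 6.57. Ezh2 itself was at 11.33, 11.44 and 11.26 in WT LICs and at 8.94 and 9.55 in LICs labelled Ezh2 KO (limma adjusted p = 0.00985). Its single probe set is not placed against the deleted part in the sources used here, so it does not check the deletion. Of the LSK markers, Kit was at 10.95 in LSK cells, 9.77 in WT LICs and 10.17 in Ezh2 KO LICs, and Cd34 at 12.26, 11.94 and 12.07. Kit was called lower in both kinds of LIC (limma adjusted p = 0.0089 and 0.045), and Hlf fell -2.57 in WT LICs (limma adjusted p = 0.012). Of 8 measured LSK genes, 2 were called lower in WT and 1 in Ezh2 KO LICs, against 2.15% and 1.86% of all genes. The median difference of the 8 from LSK cells was -1.17 and -0.74. LSK and LIC arrays also differed in Y-linked RNA, as Eif2s3y was at most 1.63 on LSK arrays and at least 9.21 on LIC arrays. Transplantation, retroviral infection, leukaemia and this difference cannot be told apart in any comparison with LSK cells. WT LIC replicate 3 stood apart from the other WT LICs, with Xist at 4.35 against 10.68 and 11.06, and Dntt at 12.14 against 9.89 and 9.58. Xist was at 12.49, 12.45 and 12.69 on the LSK arrays and at 10.69 and 11.18 on the Ezh2 KO arrays. Except for replicate 3, the LIC arrays thus carried both Xist and Y-linked RNA. Dntt was at 12.32, 12.31 and 12.63 on the LSK arrays and at 11.98 and 11.92 on the Ezh2 KO arrays. By Dntt, WT LIC replicates 1 and 2 were therefore the arrays apart from all others. Differences without WT LIC replicate 3 are given beside those of each gene. In sorted populations, more cells that carry a transcript and more RNA per cell cannot be told apart.

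**Figure D1:**
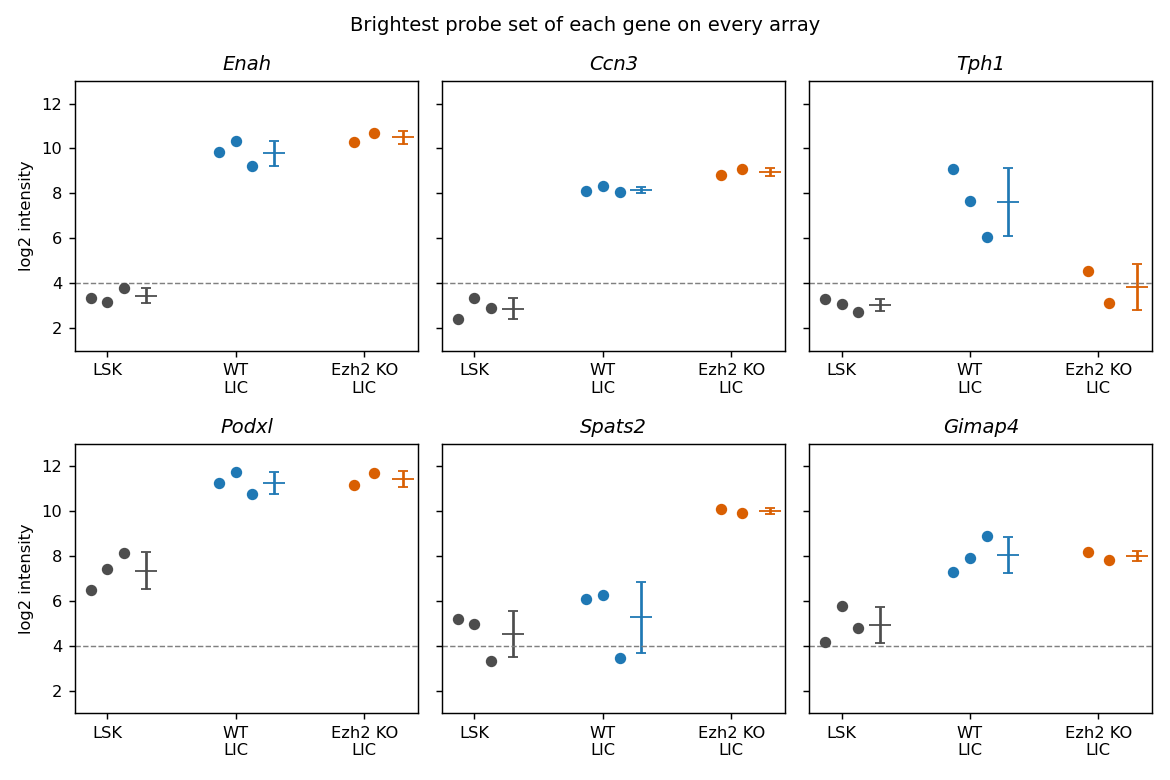
Log2 intensity of the brightest probe set of each of the 6 genes (y axis) on every array, by group (x axis). Points are arrays, the bar beside them is the mean ± SD of the group, and the dashed line is the background level of 4.01. In Enah, Ccn3, Podxl and Gimap4 the 5 LIC arrays lie above the 3 LSK arrays. In Tph1 the WT LIC arrays and Ezh2 KO replicate 1, at 4.55, do so, and in Spats2 only the Ezh2 KO arrays stand clear of the rest.

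The differences between LICs and LSK cells chose these genes, so they are given as a description with no test. All WT LIC arrays lay above all LSK arrays in 5 of the 6 genes, and 13.5% of all genes did so. All Ezh2 KO arrays lay above all LSK arrays also in 5 of 6, against 18.2% of all genes. The median difference of the 6 genes from LSK cells was 4.24 for WT LICs and 4.78 for Ezh2 KO LICs, and over all genes it was 0.02 and -0.02.

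Enah was below background in LSK cells, at 3.36, 3.15 and 3.81 on the 3 arrays. It was at 9.83, 10.32 and 9.22 on the WT LIC arrays and at 10.30 and 10.68 on the Ezh2 KO arrays. No LIC array came near an LSK array, and the WT and Ezh2 KO values overlapped. The LSK mean lay under background, so folds are bounds against 4.01 in place of the dim value: at least 54.9-fold for WT LICs and at least 89.4-fold for Ezh2 KO LICs. Without WT LIC replicate 3 the difference between WT LICs and LSK cells was 6.63 in place of 6.35 on the log2 scale. Among 12393 genes Enah ranked 3 from the top by the WT LIC difference and 2 by the Ezh2 KO difference.

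Enah had 4 probe sets, and they gave differences of unlike size. Between WT LICs and LSK cells the brightest differed by 6.35, the next by 5.18 and the third by 3.05. All 3 were below background on each LSK array and above it on each LIC array. The fourth lay below background on all 6 LSK and WT LIC arrays and was at 5.38 and 4.79 on the Ezh2 KO arrays. Each of the 4 was higher in Ezh2 KO than in WT LICs by mean, by 0.70, 1.16, 1.24 and 1.44 in that order. The transcript part that each probe set covers was not examined.

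**Figure D2:**
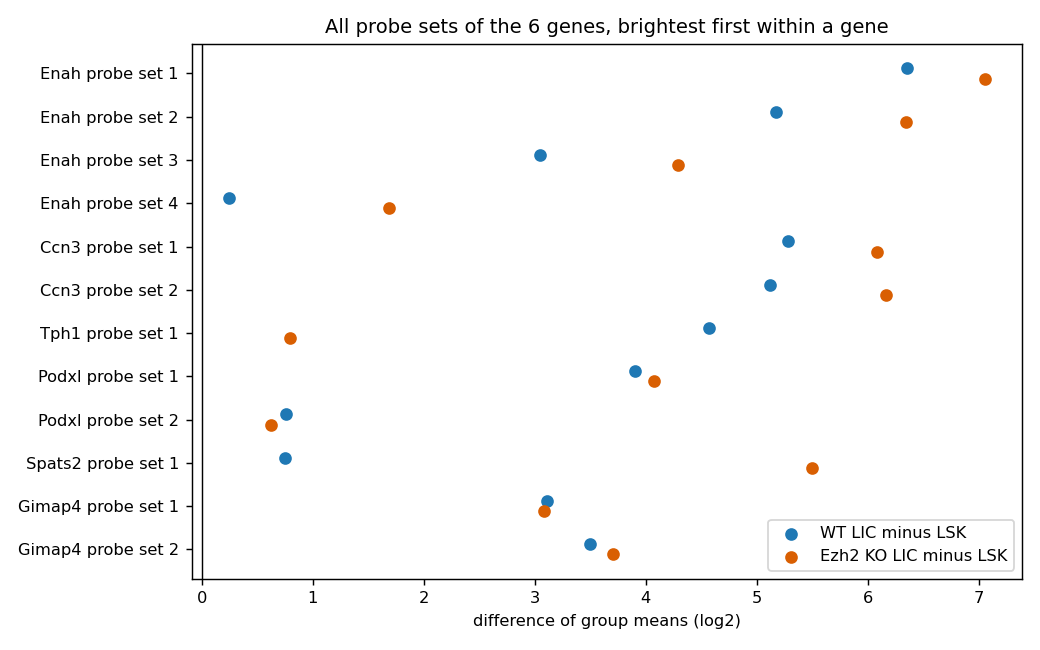
Difference of group means (x axis, log2) for each of the 12 probe sets of the 6 genes (y axis, brightest first within a gene). Blue points are WT LIC minus LSK and orange points Ezh2 KO LIC minus LSK; the 2 Ccn3 and the 2 Gimap4 probe sets lie close to each other, while those of Enah spread from 0.25 to 6.35 in WT LICs and the dimmer Podxl probe set lies near 0.76 and 0.63.

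Relatives of Enah and partners at actin filaments did not rise as a set between WT LICs and LSK cells, as the median difference of 18 measured was -0.06. Of the 18, 0 were called by limma at an adjusted p under 0.05. Over all genes 3.42% were called, 1.27% as higher and 2.15% as lower, so 0 of 18 does not set the list apart. Vasp, the family's founding member, was at 11.29 in LSK cells, 11.26 in WT LICs and 11.46 in Ezh2 KO LICs. Evl, the third member, was at 5.86, 6.18 and 8.25 in LSK cells and at 6.02, 6.62 and 6.90 in WT LICs. It was at 8.98 and 9.43 on the Ezh2 KO arrays, above every other array. The difference of 2.69 from WT LICs did not pass (SE 0.67, limma adjusted p = 0.193). Zyx, which encodes zyxin, a focal adhesion protein that recruits Ena/VASP proteins, was lower in Ezh2 KO LICs than in LSK cells by -1.07 (SE 0.20, limma adjusted p = 0.034). It was the only call of the list in that comparison, where 3.47% of all genes were called, 1.61% as higher and 1.86% as lower. That call was lost under 8 of 17 alternatives, among them the removal of any LSK array, of WT LIC replicate 2 or of either Ezh2 KO array (adjusted p up to 0.148).

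Ccn3 had the smallest SD of the 6 genes over the WT LIC arrays. It was below background in LSK cells, at 2.39, 3.33 and 2.90. The WT LIC arrays were at 8.09, 8.31 and 8.07 and the Ezh2 KO arrays at 8.84 and 9.08. The 3 groups did not overlap, and the WT LIC difference from LSK cells was 5.32 without WT LIC replicate 3 and 5.28 with it. Against LSK cells Ccn3 was at least 17.7-fold higher in the WT and at least 30.8-fold higher in the Ezh2 KO LICs, ranks 4 and 5 of all genes. The SD of 0.13 over the WT LIC arrays was larger than that of only 22.4% of the genes above background there. Its second probe set gave 5.12 and 6.16 for the same differences, beside 5.28 and 6.08 for the brighter.

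The 4 other CCN genes measured stayed dim. Ccn1, Ccn2, Ccn4 and Ccn5 lay below background on all 8 arrays, with 3.87 for Ccn2 on Ezh2 KO replicate 1 the highest value. The reported binding partners of the CCN3 protein were measured too. Notch1 was at 10.72 in LSK cells and 9.36 in WT LICs, a difference of -1.36 that did not pass (limma adjusted p = 0.072). The integrin genes Itgav, Itga6 and Itgb1 were at 10.83, 10.80 and 9.66 in WT LICs and differed from LSK cells by -0.03, -0.18 and -0.18. Itgb5 was at 6.48, 6.63 and 7.25 in LSK cells and at 5.52, 5.71 and 6.08 in WT LICs, a difference of -1.02 that did not pass (limma adjusted p = 0.0772). Itga5 was at 8.68, 8.71 and 8.29 in LSK cells and at 7.46 and 7.65 in Ezh2 KO LICs, a difference of -1.01 that did not pass either (limma adjusted p = 0.0568). Itgb3 lay below background on every array. Of 11 measured genes of the list 0 were called in any of the 3 comparisons. Over all genes 3.42%, 3.47% and 0.637% were called by limma, so 0 of 11 does not set the list apart.

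Podxl was the only one of the 6 genes that LSK cells carried well above background. The LSK arrays were at 6.49, 7.44 and 8.15, the WT LIC arrays at 11.26, 11.76 and 10.76 and the Ezh2 KO arrays at 11.18 and 11.68. WT and Ezh2 KO LICs overlapped and both lay above every LSK array. The differences amounted to 15.0-fold in WT LICs and 16.8-fold in Ezh2 KO LICs. Without WT LIC replicate 3 the WT LIC difference was 4.15 in place of 3.90 on the log2 scale. The LSK arrays had an SD of 0.83, larger than that of 94.3% of genes above background. A second Podxl probe set was below background on 7 of 8 arrays, with 4.36 on WT LIC replicate 2 the exception.

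Cd34 did not rise with Podxl, at 12.26 in LSK cells, 11.94 in WT LICs and 12.07 in Ezh2 KO LICs. The relative Podxl2 was not among the measured genes. Of 10 measured genes, Cd34, other sialomucins and partners, 1 was called between WT LICs and LSK cells. It fell, as did 2.15% of all genes. The gene called was Emcn, which encodes endomucin, a sialomucin of vessel walls and stem cells. It was at 9.32, 8.68 and 8.22 in LSK cells and at 4.96, 5.83 and 6.36 in WT LICs, a fall of -3.02 (SE 0.41, limma adjusted p = 0.013) that kept its call under all 17 alternatives. Ezh2 KO LICs were at 6.58 and 7.05. Ezr, which encodes ezrin, a linker of podocalyxin to actin, was at 9.32, 9.54 and 9.88 in the 3 groups and was not called. Of 8 measured endothelial genes, 0 rose, 1 fell (Emcn) and 7 did not pass in WT LICs, and 0 were called in Ezh2 KO LICs against LSK cells. Flt1 was at 2.68, 3.08 and 2.62 in LSK cells, at 4.87, 3.10 and 2.38 in WT LICs and at 5.34 and 6.08 in Ezh2 KO LICs. Its Ezh2 KO difference of 2.92 from LSK cells did not pass (SE 0.65, limma adjusted p = 0.058). Tek, the brightest of the 8 in LSK cells, was at 9.11, 5.56 and 5.36 in the 3 groups. The summed endothelial level was 10.50 to 11.24 on the LSK arrays, 8.64 to 9.04 on the WT LIC arrays and 8.80 to 9.44 on the Ezh2 KO arrays. Cdh5 lay at or near background, at most 4.27, and Kdr below it, at most 3.09, on all arrays. Of 7 megakaryocyte genes, 0 rose and 3 fell in WT LICs, where 1.27% of all genes were called as higher and 2.15% as lower. Summed levels of the 7 were 10.39 to 11.11 in LSK cells, 8.48 to 9.66 in WT LICs and 8.85 to 9.08 in Ezh2 KO LICs.

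Gimap4 was low but measurable in LSK cells, at 4.19, 5.78 and 4.81. It was at 7.31, 7.91 and 8.89 in WT LICs and at 8.17 and 7.85 in Ezh2 KO LICs. LIC arrays lay above all LSK arrays, and WT LIC replicate 3 was the brightest. The differences were 8.65-fold in WT LICs and 8.49-fold in Ezh2 KO LICs. The second probe set gave 3.50 and 3.70 on the log2 scale, beside 3.11 and 3.09 for the brighter. In LSK cells this second probe set was at 4.38, 3.97 and 4.26, near background and under it on 1 array. Without WT LIC replicate 3 the difference between WT LICs and LSK cells was 2.69.

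Other GIMAP genes, which lie next to each other on mouse chromosome 6, took different courses. None of the 4 measured relatives was called in any of the 3 comparisons (limma, 3.42%, 3.47% and 0.637% of all genes called). Gimap3 was at 6.75, 7.57 and 6.71 in LSK cells, at 7.48, 8.50 and 9.82 in WT LICs and at 9.05 and 8.89 in Ezh2 KO LICs. Its difference of 1.59 between WT LICs and LSK cells had a limma adjusted p of 0.162. Gimap6, the nearest measured gene beside Gimap4, was at 10.56 in LSK cells, 9.57 in WT LICs and 9.99 in Ezh2 KO LICs. Gimap1 was at 8.75, 8.17 and 8.46. Gimap7 was at 6.88 and 6.65 on WT LIC replicates 1 and 2, at 8.90 on replicate 3 and at 8.61 and 8.56 on the Ezh2 KO arrays. WT LIC replicate 3 was thus the highest WT LIC array for all 5 GIMAP genes. T cell genes stayed near background: of 8 measured, 0 were called in any comparison, and Cd3e was at most 4.48 and Cd3g at most 3.39 on any array. The highest T cell value was 5.38, for Cd5 on WT LIC replicate 3, and summed levels were 6.75 to 6.81 in LSK cells, 6.71 to 7.15 in WT LICs and 6.82 to 6.91 in Ezh2 KO LICs.

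**Figure D3:**
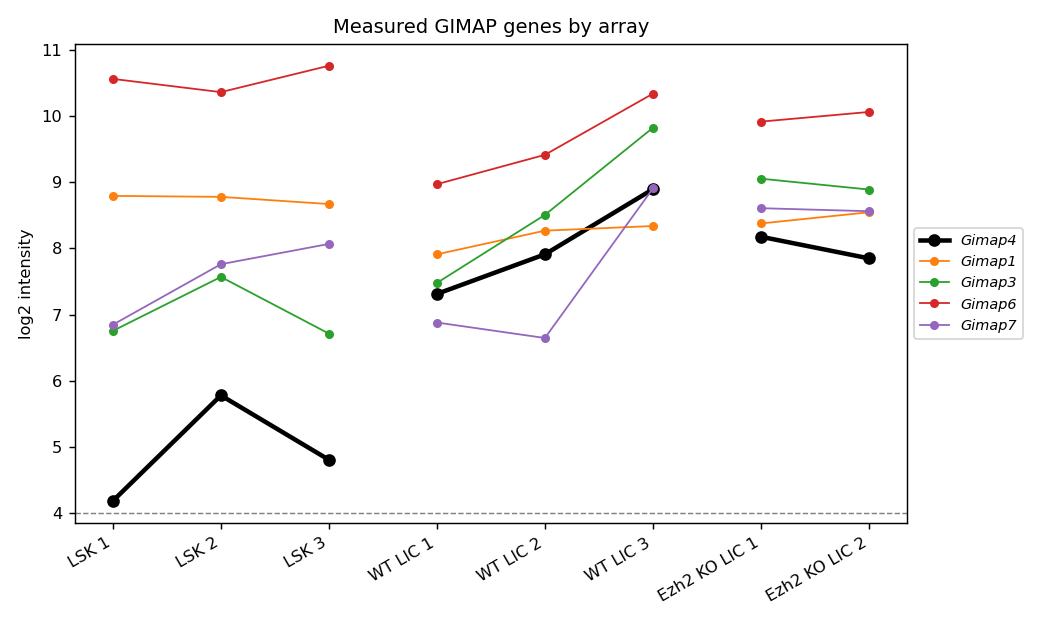
Log2 intensity (y axis) of Gimap4 (black) and the 4 other measured GIMAP genes on each array (x axis), with lines joining arrays of 1 group and a dashed line at the background level. Gimap4 and Gimap3 are higher in LICs than in LSK cells by mean, Gimap1 and Gimap6 are lower, and WT LIC replicate 3 is the highest WT LIC array for each gene.

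Tph1 was high on the WT LIC arrays and low or below background on the others. It was below background in LSK cells, at 3.30, 3.06 and 2.74. In WT LICs it was at 9.10, 7.67 and 6.05, and in Ezh2 KO LICs at 4.55 and 3.12. The WT LIC arrays all lay above both Ezh2 KO arrays, of which 1 was under background, and 16.6% of all genes showed the same downward separation. Against LSK cells the WT LICs were at least 12.1-fold higher, and the log2 difference was 4.57, or 5.35 without WT LIC replicate 3. Both means in Ezh2 KO LICs and LSK cells lay under background, so no fold is given between them. The SD of 1.52 over the WT LIC arrays was larger than that of 97.9% of genes above background. A single probe set reports Tph1.

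The other genes of serotonin synthesis did not follow Tph1. Tph2 was not among the measured genes. Ddc, which encodes the decarboxylase that completes serotonin synthesis, was below background on 7 of the 8 arrays and at 5.43 on Ezh2 KO replicate 1. Slc6a4, the serotonin transporter gene, was below background on all. Genes of the biopterin cofactor that Tph1 needs were present in each group: Qdpr was at 12.15, 12.19 and 12.19, and Gch1 at 7.26, 6.88 and 6.25, in LSK cells, WT LICs and Ezh2 KO LICs. Of 15 measured genes, 2 rose in WT LICs and 0 fell, where 1.27% of all genes were called as higher and 2.15% as lower. Slc7a5, which encodes a large neutral amino acid transporter, rose 1.04 in WT LICs (SE 0.16, limma adjusted p = 0.021) and 0.87 in Ezh2 KO LICs (SE 0.18, limma adjusted p = 0.048). Maoa, which encodes a monoamine oxidase that breaks serotonin down, rose 1.22 (SE 0.24, limma adjusted p = 0.039) and 1.62 (SE 0.27, limma adjusted p = 0.025). Single arrays decided several of these calls. In WT LICs, the Slc7a5 call was lost on leaving out replicate 1 or 3 of the LSK arrays or 1 or 2 of the WT LIC arrays (adjusted p up to 0.0774). The Maoa call there was lost on leaving out any array except WT LIC replicate 3 (up to 0.123). In Ezh2 KO LICs, Slc7a5 lost its call with any 1 of the 8 arrays left out (up to 0.206). Maoa lost it there with replicate 1 or 3 of the LSK arrays or either Ezh2 KO array left out (up to 0.125).

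Some genes of mast cells and basophils ranked the LIC arrays as Tph1 did. Of 9 measured genes of that list, Cpa3, a mast cell carboxypeptidase gene, rose in WT LICs against LSK cells, 0 fell and 8 did not pass. Over all genes 1.27% were called as higher and 2.15% as lower. The median difference of the list was 2.06 in WT LICs and 0.98 in Ezh2 KO LICs. Cpa3 was at 8.10 in LSK cells, at 11.75, 10.21 and 10.23 on the WT LIC arrays and at 9.86 and 8.30 on the Ezh2 KO arrays. Its rise of 2.63 (SE 0.52, limma adjusted p = 0.040) lost its call when any LSK array, or the first or second WT LIC array, was left out (adjusted p up to 0.110). Cma1, a chymase gene, was at 12.14, 10.70 and 9.75 in WT LICs and at 9.34 and 8.83 in Ezh2 KO LICs. Hdc, which encodes the enzyme of histamine synthesis, was at 9.44, 8.35 and 7.48 in WT LICs and at 7.45 and 6.01 in Ezh2 KO LICs. The 5 LIC arrays ranked in the same order by Tph1 and by 3 of the 9 list genes, Mcpt8, Hdc and Cma1. That order was also found in 2.15% of the other genes and was noticed after the values were seen. Unlike Tph1, these genes were already present in LSK cells, where Cma1 was at 6.32, 9.26 and 6.77. The other 6 did not keep to that order. Mcpt4, a mast cell protease gene, was at 8.64, 2.62 and 1.77 on the WT LIC arrays and at 7.07 and 6.88 on the Ezh2 KO arrays. Tpsb2, a tryptase gene, and Cpa3 were higher on WT LIC replicate 3 than on replicate 2, and Gata2 was lowest on WT LIC replicate 3, at 10.76. Of the IgE receptor subunit genes Fcer1a and Ms4a2, Fcer1a was at 8.07, 4.19 and 2.85 in WT LICs and at 6.22 and 3.18 in Ezh2 KO LICs, and Ms4a2 was above background only on WT LIC replicate 1, at 4.36, and Ezh2 KO replicate 1, at 5.38. The summed level of the list was 11.87 to 12.11 in LSK cells, 12.46 to 13.94 in WT LICs and 11.98 to 12.36 in Ezh2 KO LICs. Its part in the Tph1 levels was not tested.

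Erythroid genes were also highest on WT LIC replicates 1 and 2, the arrays highest in Tph1, by their summed level. Of 5 measured, 0 were called in any comparison (limma, 3.42%, 3.47% and 0.637% of all genes called). Klf1, an erythroid transcription factor gene, was at 10.78 and 9.81 on these arrays, at 4.89 on WT LIC replicate 3 and at 7.37 and 5.80 on the Ezh2 KO arrays. The summed erythroid level was 8.71 to 9.39 in LSK cells, 6.63 to 12.26 in WT LICs and 7.23 to 8.38 in Ezh2 KO LICs. On WT LIC replicate 3, where the erythroid sum was lowest, Tph1 was at 6.05, above background and its lowest WT LIC value. The part of erythroid genes in the Tph1 levels was not tested.

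**Figure D4:**
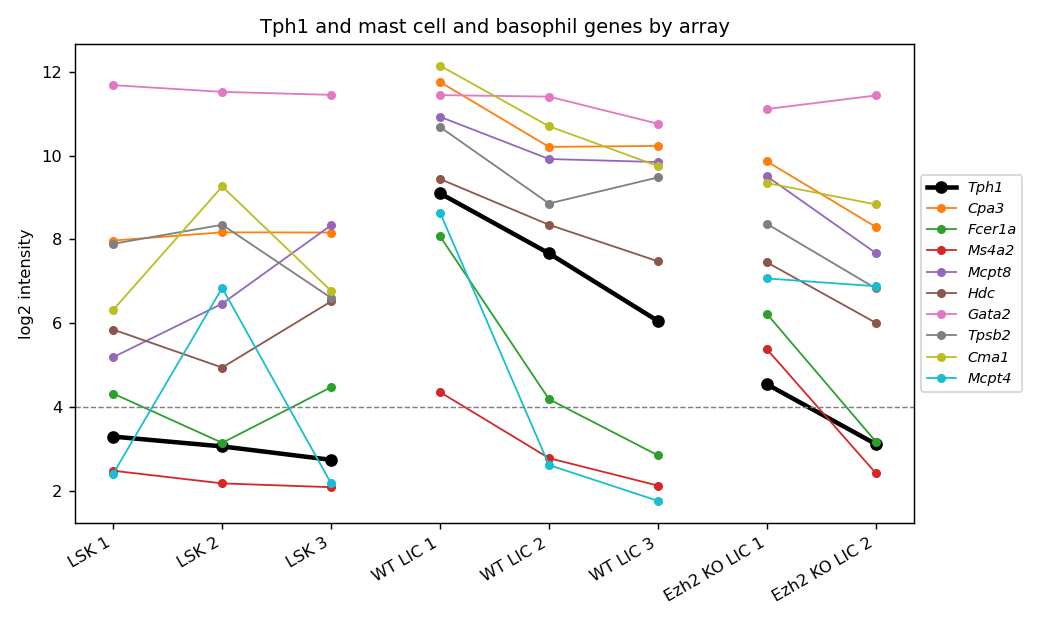
Log2 intensity (y axis) of Tph1 (black) and the 9 measured mast cell and basophil genes on each array (x axis), with lines joining arrays of 1 group and a dashed line at the background level. Tph1, Mcpt8, Hdc and Cma1 fall in the same order over the 5 LIC arrays, the other 6 list genes do not, and in LSK cells Tph1 lies below background while Cma1, Cpa3 and Hdc do not.

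Spats2 did not differ between WT LICs and LSK cells beyond their spread. It was at 5.21, 4.99 and 3.34 in LSK cells and at 6.10, 6.26 and 3.45 in WT LICs, so that the groups overlapped. The Ezh2 KO arrays were at 10.11 and 9.92, far above the other 6. Against LSK cells the WT LICs were 1.68-fold higher by mean and the Ezh2 KO LICs 45.2-fold, ranks 664 and 7 of all genes. WT LIC replicate 3 lay below background, and without it the difference between WT LICs and LSK cells was 1.66 on the log2 scale in place of 0.75. A single probe set reports Spats2. Its relative Spats2l lay below background on every array.

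B cell genes were high on the same Ezh2 KO arrays as Spats2. Of 7 measured, 2 rose in Ezh2 KO against WT LICs, 0 fell and 5 did not pass, where 0.637% of all genes were called and 0.589% as higher. Igll1, part of the receptor that pre-B cells carry, rose 5.23 (SE 0.47, limma adjusted p = 0.0075) and Cd79a, which encodes a signalling subunit for B cell antigen receptors, rose 3.69 (SE 0.34, limma adjusted p = 0.0075). Both kept their call under all 17 alternatives. Pax5 and Ms4a1 lay below background on all arrays. The summed level of the list was 9.69 to 10.16 in LSK cells, 8.77 to 9.76 in WT LICs and 11.98 to 12.74 in Ezh2 KO LICs. On WT LIC replicate 1 Ebf1, a B-lineage transcription factor gene, was at 7.06 with Spats2 at 6.10, and on replicate 2 Ebf1 was at 2.70 with Spats2 at 6.26. Among NK cell genes (5 measured) and stromal genes (8 measured), 1 of each rose in Ezh2 KO LICs against LSK cells. Over all genes 1.61% were called as higher there. Gzma, a granzyme gene, was at 7.15 and 6.57 on the Ezh2 KO arrays and at 5.04, 3.43 and 2.24 in WT LICs, and rose 4.32 against LSK cells (limma adjusted p = 0.0249). Sparc, a matrix protein gene, was at 7.93 and 8.19 on the Ezh2 KO arrays and at 5.80, 5.83 and 5.32 in WT LICs, and rose 3.77 (limma adjusted p = 0.0267). The Gzma call was lost on leaving out any LSK or Ezh2 KO array (adjusted p up to 0.124), and the Sparc call with LSK replicate 3, WT LIC replicate 1 or either Ezh2 KO array left out (up to 0.129). Summed levels of the NK cell list were 10.87 to 11.64 in LSK cells, 12.01 to 12.13 in WT LICs and 11.72 to 11.92 in Ezh2 KO LICs. Those of the stromal list were 8.34 to 8.89, 8.11 to 8.67 and 9.03 to 9.05. The part of any of these genes in the Spats2 levels was not tested.

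Between Ezh2 KO and WT LICs, Spats2 and Tph1 are given as a description with no test, because each was above LSK cells in 1 kind of LIC only, so that the choice of the list can fix this difference. Spats2 was higher in Ezh2 KO LICs by 4.74, a 26.8-fold difference, with both Ezh2 KO arrays above all WT LIC arrays, as in 13.2% of all genes. Without WT LIC replicate 3 it was higher by 3.83. Tph1 was lower by -3.77, at least 10.0-fold against background, and without WT LIC replicate 3 by -4.55. By this difference Tph1 ranked 12392 and Spats2 13 of 12393 genes.

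Enah, Ccn3, Podxl and Gimap4 were high in both kinds of LIC, and the difference between Ezh2 KO and WT LICs was tested for them, although the same LIC arrays helped to choose them and which comparison chose the list is not stated. The plan had named all 6 genes for this test. Keeping these 4 was a choice made from the same values, and it favours small differences between the 2 kinds of LIC. By limma over all 12393 genes 79 were called (0.637%). That 0 of these 4 were among them is therefore not read as a result about them. The number of calls was 146 without WT LIC replicate 3, 25 without replicate 1, 37 without replicate 2 and 40 without Ezh2 KO replicate 2. At an unadjusted p under 0.05 there were 1380 of all genes and 1 of the 4, Ccn3. Ccn3 was higher in Ezh2 KO LICs by 0.80 (95% interval 0.17 to 1.43, limma adjusted p = 0.338), with both Ezh2 KO arrays above all WT LIC arrays. For Enah, Podxl and Gimap4 the differences were 0.70 (95% interval -0.09 to 1.50), 0.17 (-0.98 to 1.32) and -0.03 (-1.32 to 1.27). Without WT LIC replicate 3 they were 0.42, -0.083 and 0.40, and that of Ccn3 was 0.76. These intervals leave room for changes of more than 1 on the log2 scale in each gene, so equal levels were not shown.

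Among the 6 genes, Enah, Ccn3 and Podxl had nearly the same profile over the 8 arrays, with Pearson r of 0.99 for Enah and Ccn3, 0.98 for Enah and Podxl and 0.98 for Ccn3 and Podxl. Gimap4 had r of 0.90 to 0.94 with these 3. Tph1 and Spats2 had r of -0.03 with each other. These values rest mostly on the gap between LSK cells and LICs, which chose the genes, and the arrays of a group share their sort and model.

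The genes most like each of the 6 were sought among 1665 others that ranged over at least 2 on the log2 scale. Tjp1, which encodes the tight junction protein ZO-1, was most like Enah (r = 0.99), at 7.34 to 8.24 on the LSK arrays and 10.85 to 11.55 on the LIC arrays. The Y-linked Eif2s3y was next for Enah and first for Ccn3 (r = 0.99 for both). Socs2, a feedback inhibitor of cytokine signalling, was second for Ccn3 (r = 0.99). For Podxl they were Ptgir, the prostacyclin receptor gene, and Hsd17b1, a steroid dehydrogenase gene (r = 0.98 and 0.97). For Gimap4 they were the Y-linked Kdm5d (r = 0.99) and Col18a1, a collagen gene (r = 0.98). A Y-linked gene was thus among the closest for 3 of the 6.

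For Tph1 the closest were Slc11a2, an iron and metal transporter gene (r = 0.97), and Cyp11a1, which encodes the first enzyme of steroid synthesis (r = 0.95). Slc11a2 was at 8.80, 8.20 and 7.28 on the WT LIC arrays and at 7.31 and 6.19 on the Ezh2 KO arrays. Cyp11a1 was at 8.70, 7.39 and 6.40 on the WT LIC arrays and at 6.71 and 5.56 on the Ezh2 KO arrays. For Spats2 the closest were Cdkn2a (r = 0.96), a cell-cycle inhibitor gene that Polycomb complexes are known to repress, and Fzd2, a Wnt receptor gene (r = 0.95). Cdkn2a was at 3.94, 4.51 and 2.40 in WT LICs and at 8.46 and 6.69 in Ezh2 KO LICs. Fzd2 was at 4.51, 4.16 and 3.75 in WT LICs and at 6.87 and 7.63 in Ezh2 KO LICs. On the LSK arrays Cdkn2a was at 2.45, 2.96 and 2.34 and Fzd2 at 3.52, 3.45 and 3.06. These genes were picked by likeness over the same 8 arrays, so no test of them is given.

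**Figure D5:**
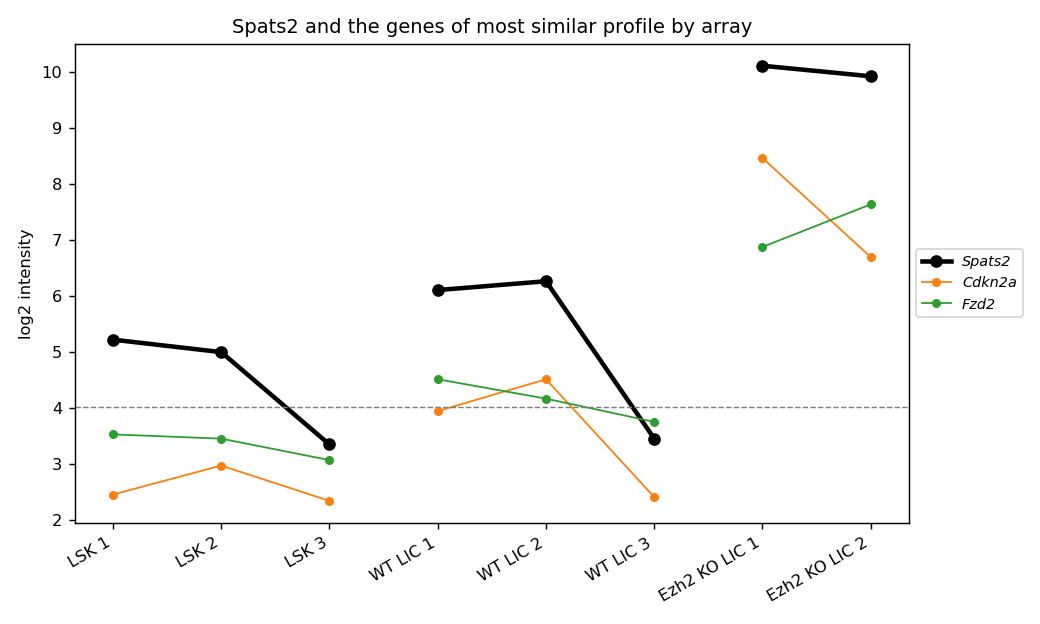
Log2 intensity (y axis) of Spats2 (black), Cdkn2a and Fzd2 on each array (x axis), with lines joining arrays of 1 group and a dashed line at the background level. Each gene is highest on the 2 Ezh2 KO arrays, and each has its lowest WT LIC value on replicate 3.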

How the data were processed

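Arrays of 3 LSK, 3 WT LIC and 2 Ezh2 KO LIC samples were compared. The authors deposited linear intensity values, 1.94 to 19343, for 22690 probe sets; per the submitters' processing notes they were made with RMA (version not given in the sources used here). Per the labels' protocols, RNA was amplified by SPIA before biotin labelling. The plan had taken the deposited values to be log2, so log2 was computed first, with no pseudocount, and the limma fit stayed as planned. The largest SD between arrays at any rank was 0.0815, so the arrays had close but not identical distributions, with medians from 6.42 to 6.57. Control probe sets (64), those with several symbols (691) and those not listed in the annotation (1555) were left out, and 20351 of the 20380 others matched RefSeq (assembly GRCm38.p6) by gene number. Each gene took its brightest probe set, with no filter on dim genes.

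All 3 groups were fitted together in limma 3.58.1 (R 4.3.3) with lmFit and eBayes, 5 residual degrees of freedom, 2-sided, and Benjamini-Hochberg adjustment over 12393 genes, called under 0.05. The fit was also run on simulated data with known changes and independent noise, which cannot show how it performs on these arrays. The members, gene lists and motifs were chosen with earlier results of these data known. Named genes were the 6, Ezh2, the 2 of highest Pearson r with each (predicted genes and receptor segments passed over), the nearest measured neighbours, called list members, close relatives and leading markers. A summed level is the log2 of the sum of intensities over a list's genes. Alternatives were a filter at the 40th percentile, median centring, quantile normalization, a trended robust prior, only the 2 groups compared, the repeat number as a block, the mean of probe sets, all probe sets, a floor at background, and each array left out. No batch is given, so batch and group cannot be told apart. The number of arrays limits precision: the median SE was 0.207 for WT LICs against LSK cells. Repeat numbers were not treated as pairs in the main fit. Figures were drawn with matplotlib 3.10.9.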

Additional observations from a re-analysis of the deposited data

How the results depend on the processing

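Differences of the 6 genes from LSK cells kept their direction under each alternative run. Averaging all probe sets gave 3.71 (WT) and 4.84 (Ezh2 KO) for Enah and 2.33 and 2.35 for Podxl. Setting values below background to it, which shrinks these differences by construction, gave 5.78 and 6.48 for Enah and 4.15 and 4.95 for Ccn3. The repeat number as a block gave 4.75 for Spats2 in Ezh2 KO LICs against LSK cells. For Ezh2 KO against WT LICs the block gave 4.0 for Spats2 and 0.16 for Gimap4, and Gimap4 was at 0.013 after quantile normalization and 0.088 with the mean of probe sets. With an array left out, differences between Ezh2 KO and WT LICs ranged from -4.55 to -3.03 for Tph1, 3.83 to 5.24 for Spats2, -0.084 to 0.42 for Podxl and -0.39 to 0.40 for Gimap4. The filter left no value for Tph1. For WT LICs against LSK cells 424 of all genes were called, 252 with the block, 251 with the floor and 176 to 643 with an array left out. For Ezh2 KO LICs against LSK cells 430 were called, 147 with the block and 118 to 643 with an array left out. For Ezh2 KO against WT LICs 79 were called, 32 among genes above the 40th percentile, 35 with only these groups, 36 with the block, 47 with the floor and 25 to 146 with an array left out. The highest count of each comparison was that without WT LIC replicate 3. Against LSK cells, leaving out any array of the compared groups moved the count by over 1.5 times. Median centring moved the median of all genes from 0.02 to 0.15 for WT LICs against LSK cells and from -0.02 to 0.11 for Ezh2 KO LICs against LSK cells, and made 58.3% in place of 37.0%, and 66.6% in place of 46.5%, of the calls upward. Same-numbered arrays had correlations of -0.05 to 0.14 between their deviations from the group means. With so few arrays in a group these deviations are tied to each other, so they cannot show whether the numbers pair the arrays. The cause of these shifts was not tested, except where it lies in the alternative's construction.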

Other observations

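The nearest measured genes on either side of each of the 6 rose by at most 0.32 between WT LICs and LSK cells. Lbr and Srp9 beside Enah differed between WT LICs and LSK cells by -0.01 and -0.15, and Mkln1 and Chchd3 beside Podxl by 0.27 and 0.32. Mal2 and Prph, beside Ccn3 and Spats2, had mean levels below background in all 3 groups, and Deptor and Kcnh3 on the other side differed by -0.01 and 0.16. Sergef and Saal1 beside Tph1 differed by 0.21 and 0.23, and Repin1 beside Gimap4 by -0.28. None of the 12 neighbours, Gimap6 included, was called by limma in any of the 3 comparisons. Over all genes 3.42%, 3.47% and 0.637% were called, so 0 of 12 does not set the neighbours apart.

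The other marker lists gave the following counts of genes called by limma against LSK cells. Over all genes 1.27% were called as higher and 2.15% as lower in WT LICs, and 1.61% and 1.86% in Ezh2 KO LICs. In WT LICs 0 of 5 NK cell genes, 0 of 8 stromal genes, 0 of 9 granulocyte genes, 1 lower of 5 antibody-secreting cell genes, 1 lower of 6 monocyte and macrophage genes and 2 lower of 8 LSK genes were called. In Ezh2 KO LICs the counts were 1 higher NK cell gene, 1 higher stromal gene, 0 granulocyte genes, 2 lower antibody-secreting cell genes, 1 lower monocyte and macrophage gene, 1 lower LSK gene and 1 lower of 7 megakaryocyte genes.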
